A study of Homo sapiens with 9 samples.

Results

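The genes described here are the WNT ligands, their Frizzled receptors and co-receptors, the secreted proteins that act on them, and a small number of genes that feed back on the pathway. They were chosen by symbol: every WNT, FZD, SFRP, DKK and RSPO gene with a number in its name, together with AXIN2, LGR4, LGR5, LRP5, LRP6, ROR1, ROR2, RNF43, ZNRF3, NKD1, NOTUM and PORCN. This gave 53 of the 28216 genes counted, namely 19 WNT, 10 FZD, 4 SFRP, 4 DKK and 4 RSPO genes and 12 genes chosen singly. The rule itself uses symbols and no measured value, although it was set with earlier results of these data known.

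WNT proteins are secreted lipid-modified ligands, and PORCN is the enzyme that attaches the lipid. In the canonical branch a WNT binds a Frizzled receptor and LRP5 or LRP6, beta-catenin is spared from degradation, and TCF/LEF factors switch on targets that include AXIN2 and NKD1, which restrain the signal. In the non-canonical branch ligands such as WNT5A act through Frizzleds and the receptor kinases ROR1 and ROR2. DKK, SFRP and NOTUM proteins block the pathway outside the cell, whereas R-spondins, bound by LGR4 or LGR5, hold off RNF43 and ZNRF3, the ubiquitin ligases that clear Frizzleds from the surface. In prostate cancer the pathway has been studied in androgen-independent growth and in bone metastasis, where DKK1 made by tumour cells restrains bone-forming cells.

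RNA was measured in 3 groups of 3 libraries, all labelled epithelial and wild type. PC3 is an established line from a prostate cancer metastasis to bone, and its libraries came from untreated cells in F12K medium with serum. LNCaP is an established line from a lymph node metastasis, and its cells spent 24 h in RPMI without phenol red and with charcoal-stripped serum, which is depleted of steroids. The androgen dihydrotestosterone (DHT) was then given at 10 nM for 48 h to one LNCaP group, and the other received 0.01% ethanol, its vehicle, for as long. The labels name the androgen DHT, whereas the study's main text names R1881, a synthetic androgen. Each line is a single line, and PC3 and LNCaP cells also differed in medium and serum, so line and culture condition cannot be told apart. The labels do not say whether replicates were separate cultures, and p-values therefore measure the spread between these libraries, which may be technical.

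The libraries held 17397706 to 25640325 gene counts each, and 3 counts corresponded to 0.118 to 0.160 CPM, the count scaled to a common library size. KLK2, an androgen-induced kallikrein of luminal prostate cells, was at 0 in every PC3 library and lay between 32.5 and 757 CPM in LNCaP cells. HOXB13, a factor of the prostate lineage, measured 471 to 805 CPM in PC3 and 415 to 545 CPM in LNCaP cells. All 4 epithelial markers exceeded 3 CPM in every library of each group, and their summed level was 455 to 464 CPM in PC3, 3538 to 3672 CPM with DHT and 1237 to 1288 CPM with vehicle. The 4 endothelial markers summed to 6.10 to 8.54 CPM in PC3, 6.89 to 7.89 CPM with DHT and 16.0 to 17.9 CPM with vehicle, through KDR and PECAM1 in PC3 and VWF in LNCaP cells, while CDH5 was at 0 in all 9 libraries. The 5 leukocyte markers summed to 32.8 to 34.6 CPM, 15.8 to 23.2 CPM and 1.74 to 2.30 CPM in that order, nearly all of it CD68, while CD3E was at 0 throughout. The 6 fibroblast markers, led by COL1A1, summed to 37.4 to 49.95 CPM, 13.0 to 15.4 CPM and 22.9 to 25.9 CPM, and the part of these cell types in the results was not tested. The 8 markers of PC3 type (VIM, CAV1, CAV2, CD44, AXL, ANXA1, EPHA2 and MET) summed to 4160 to 4639 CPM in PC3 cells, 15.3 to 38.3 CPM with DHT and 12.2 to 22.8 CPM with vehicle.

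Most of the pathway's ligands and secreted inhibitors were low, whereas most of its receptors were expressed in both lines. In no group did 13 of the 19 WNT genes and 8 of the 9 secreted antagonists exceed 3 CPM in every library. Of the 53 genes, 7 had 0 counts in every library (WNT6, WNT16, FZD10, DKK2, DKK4, SFRP5 and RSPO1). A further 9 never exceeded 3 counts (WNT1, WNT2, WNT3A, WNT8A, WNT11, SFRP2, SFRP4, RSPO2 and RSPO3), and DKK3 and RSPO4 reached at most 4 counts. A count of 0 leaves room for up to 3 counts, a bound on counting error alone. At the other end, 25 genes exceeded 3 CPM in every library of at least 1 group, and 15 did so in all 3 groups. By role, 10 of the 14 receptors and co-receptors exceeded 3 CPM in every PC3 library, 11 in every DHT library and 10 in every vehicle library. Of the 9 secreted antagonists, DKK1 did so in PC3 and 0 did so in either LNCaP group. None of the 4 R-spondins or the 4 SFRP genes exceeded 3 CPM in every library of any group. In these bulk samples, fewer expressing cells and less RNA per cell cannot be told apart.

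**Figure D1:**
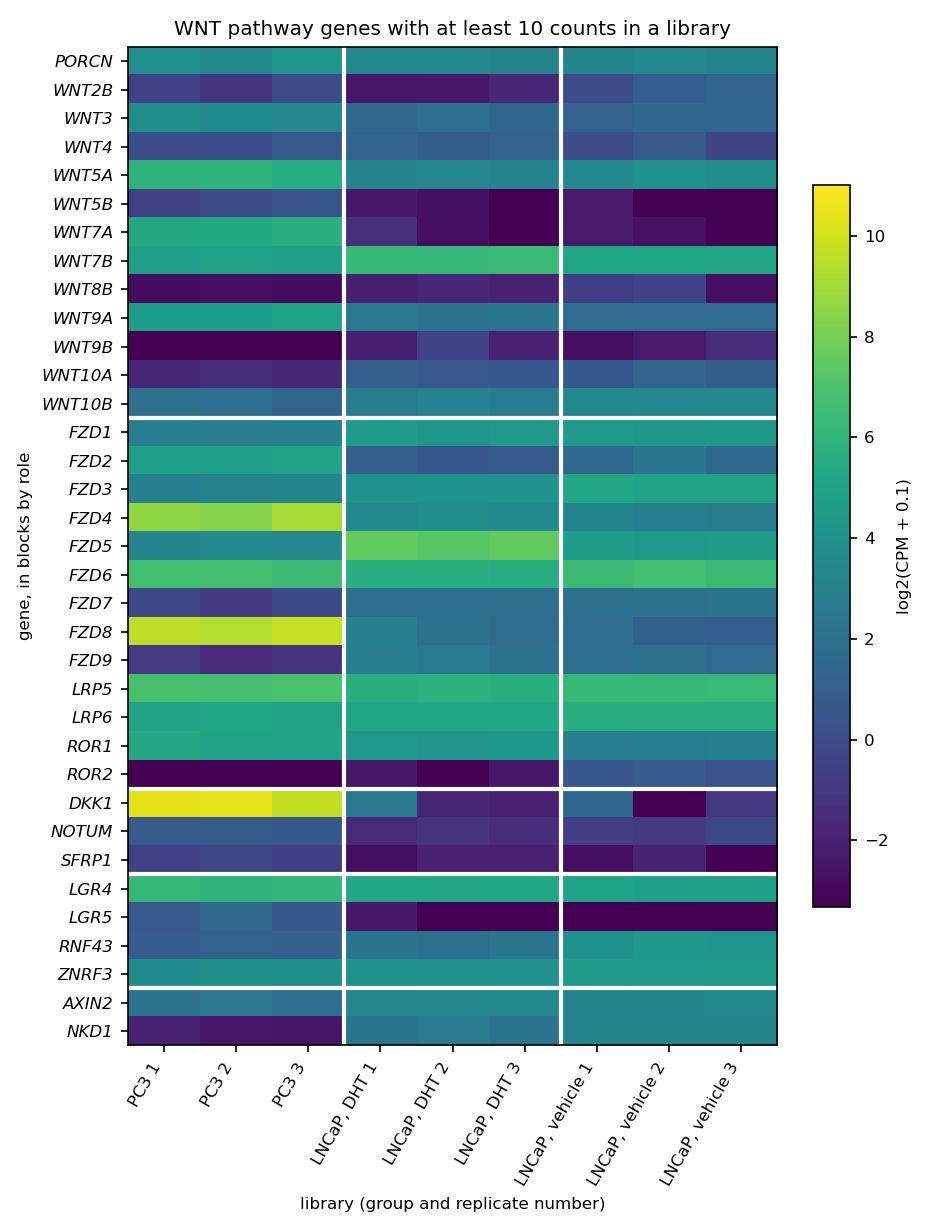
Level of the 35 genes with at least 10 counts in a library, as log2(CPM + 0.1), with 1 column per library and 1 row per gene in blocks by role (ligands with PORCN, receptors, antagonists, R-spondin receptors and ligases, feedback genes). PC3 libraries stood out by DKK1, FZD8 and FZD4, and DHT-treated LNCaP libraries by FZD5.

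PC3 cells differed from LNCaP cells across all roles of the pathway, with about as many genes higher as lower. A gene was called where edgeR's quasi-likelihood test gave a Benjamini-Hochberg adjusted p under 0.05 over all genes tested and the fold change was at least 2. Genes needed more than 3 CPM in at least 3 of the 6 libraries compared. For this filter alone, CPM were scaled by total gene counts, without the TMM factors used for the CPM given here. In DHT against vehicle FZD2 passed on that scale only. Against DHT-treated LNCaP cells, 18 of the 25 pathway genes tested were called, compared with 46% of all genes tested. WNT3, WNT5A, WNT7A, WNT9A, FZD2, FZD4, FZD8, LRP5 and DKK1 were the 9 higher in PC3, against 24% of all genes. WNT7B, WNT10B, FZD1, FZD5, FZD7, FZD9, RNF43, AXIN2 and NKD1 were the 9 lower in PC3, against 22.1% of all genes. Against vehicle-treated LNCaP cells, 19 of 25 were called, compared with 43.2% of all genes. The 10 higher in PC3, against 22.2% of all genes, were WNT3, WNT5A, WNT7A, WNT9A, FZD2, FZD4, FZD8, ROR1, DKK1 and LGR4. The 9 lower, against 21% of all genes, were WNT10B, FZD1, FZD3, FZD5, FZD7, FZD9, RNF43, AXIN2 and NKD1. These comparisons share the PC3 libraries. Several of these genes passed the filter through only 1 of the groups, which selects for a difference. Among genes that passed in both groups, 9 of 16 were called against DHT and 9 of 15 against vehicle. The shares of all such genes were 35% and 31.6%.

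Androgen moved fewer pathway genes. Between DHT and vehicle, 7 of the 22 genes tested were called, compared with 14% of all genes tested. FZD5, ROR1, WNT7B and FZD8 were the 4 higher with DHT, against 6.54% of all genes. RNF43, FZD3 and FZD2 were the 3 lower with DHT, against 7.49% of all genes. A further 11 passed the adjusted p with a change under 2-fold, and PORCN, FZD1, FZD7 and AXIN2 did not pass it. Among the 20 genes that passed the filter in both LNCaP groups, 5 were called, beside 11.1% of all such genes. Called outside these 20 were FZD8 and FZD2. FZD8 exceeded 3 CPM in every library with DHT only, and FZD2 did so in neither group. The median size of change over the genes tested was 0.63 on the log2 scale for the pathway and 0.34 for all genes. In PC3 against DHT it was 1.59 for the pathway and 0.90 for all genes, and in PC3 against vehicle 2.04 and 0.84. Genes that passed through 1 group raise these values. Over genes that passed in both groups it was 0.59 for the pathway and 0.32 for all genes in DHT against vehicle, 1.17 and 0.72 in PC3 against DHT, and 1.22 and 0.65 in PC3 against vehicle.

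**Figure D2:**
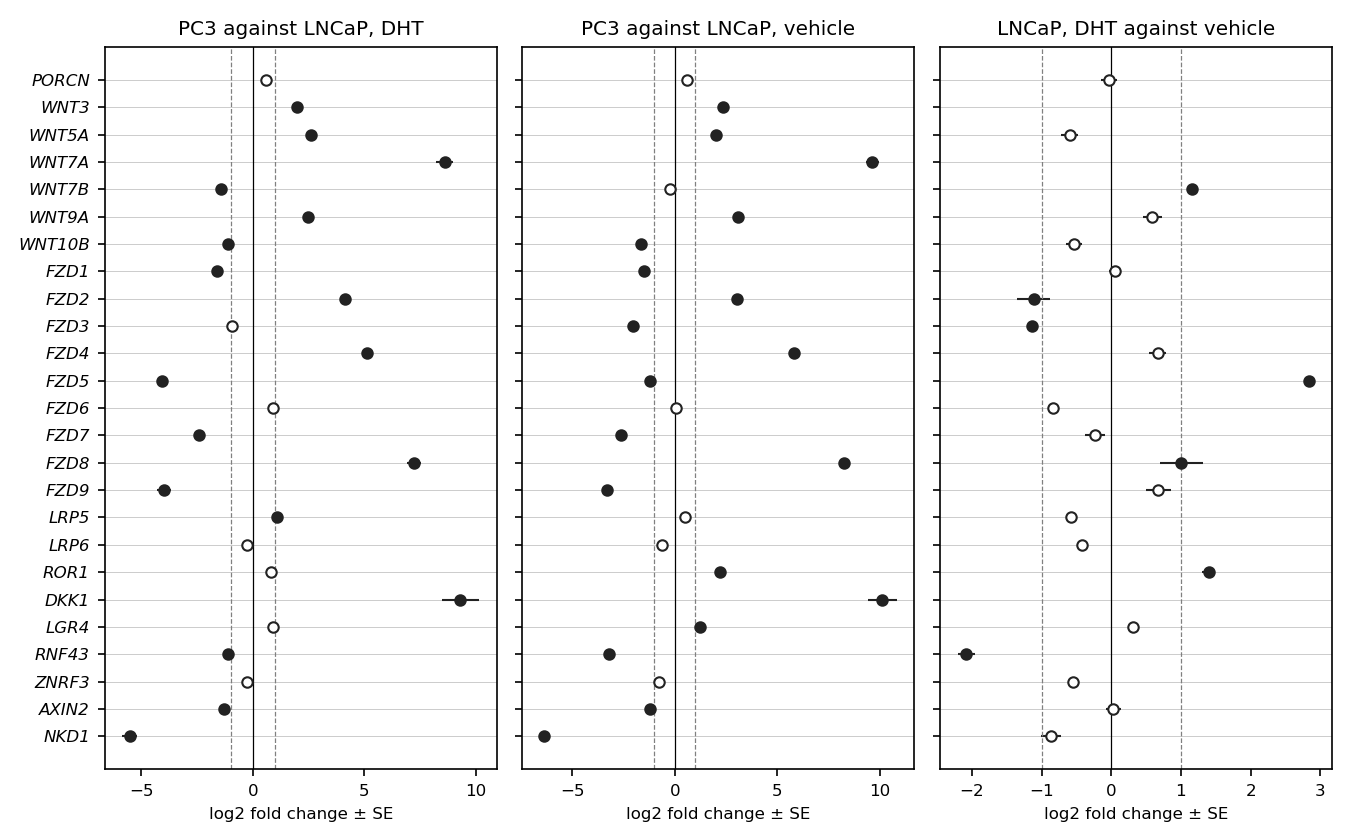
Log2 fold changes (horizontal axes) with their standard errors for the pathway genes tested, 25 in each PC3 comparison and 22 in DHT against vehicle, 1 panel per comparison. Filled points were called, open points were not, and dashed lines mark a 2-fold change. PC3 against LNCaP cells spanned -6.36 to 10.12, while DHT against vehicle spanned -2.08 to 2.84. The WNT7A point against vehicle rests on 3 vehicle counts.

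Where more weakly expressed genes were admitted, with at least 10 counts in 3 libraries of a comparison, 23 of 31 pathway genes were called in PC3 against DHT, compared with 50.2% of all genes. The counts were 26 of 33 in PC3 against vehicle, compared with 47.5%, and 9 of 27 in DHT against vehicle, compared with 16.9%. The genes this added were WNT2B, WNT5B, WNT10A, ROR2, NOTUM, SFRP1 and LGR5. All 7 averaged under 2 CPM in each group.

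Library values are given below as CPM in the order of replicates 1, 2 and 3, and fold changes as log2 values with their standard error.

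The ligands differed between the lines in kind. WNT7A, which signals through either branch depending on the cell, measured 42.0, 41.7 and 53.9 CPM in PC3. It was close to absent from LNCaP cells, with 0.277, 0.0490 and 0 CPM under DHT and 0.105, 0.0533 and 0 CPM under vehicle. Its log2 difference from DHT-treated cells was 8.59 ± 0.39 (adjusted p = 3.3e-07), and 10.56 without DHT replicate 1. Against vehicle, 3351 PC3 counts stood beside 3, which gave a ratio of 891 with an exact 95% counting interval of 305 to 4323. WNT5A, the main non-canonical ligand, measured 61.3, 61.3 and 46.4 CPM in PC3, 9.11, 9.95 and 8.64 CPM with DHT, and 11.6, 16.1 and 13.3 CPM with vehicle. PC3 exceeded DHT by 2.59 ± 0.13 (adjusted p = 6.62e-07) and vehicle by 2.02 ± 0.16 (adjusted p = 7.79e-06). The groups of libraries did not overlap, and DHT lay under vehicle by less than 2-fold (-0.60 ± 0.12, adjusted p = 0.000734).

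WNT9A and WNT3 were likewise higher in PC3. WNT9A measured 25.04, 25.9 and 31.8 CPM in PC3 against 4.46 to 5.45 CPM with DHT and 3.15 to 3.30 CPM with vehicle. The differences were 2.47 ± 0.14 from DHT (adjusted p = 1.08e-06) and 3.08 ± 0.13 from vehicle (adjusted p = 3.2e-07). WNT3, a canonical ligand, measured 13.8, 12.6 and 10.8 CPM in PC3 against 2.73 to 3.63 CPM with DHT and 2.15 to 2.61 CPM with vehicle. The differences were 1.98 ± 0.16 (adjusted p = 8.13e-06) and 2.33 ± 0.15 (adjusted p = 2.52e-06). WNT5B, a close relative of WNT5A, held 15, 19 and 34 counts in PC3 and at most 2 counts in any LNCaP library. The ratio was 19.4 to DHT (interval 6.36 to 96.3) and 27.1 to vehicle (interval 7.22 to 228).

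WNT7B and WNT10B had the opposite leaning, towards LNCaP. WNT7B, a ligand made by many epithelia, measured 76.4, 75.4 and 80.3 CPM with DHT, 34.4, 33.5 and 33.7 CPM with vehicle, and 28.8, 31.8 and 26.6 CPM in PC3. It rose with DHT by 1.16 ± 0.049 (adjusted p = 2.09e-10) and was lower in PC3 than with DHT (-1.43 ± 0.082, adjusted p = 1.18e-06). Against vehicle the PC3 value missed 2-fold by a wide margin (-0.24 ± 0.083, adjusted p = 0.0257). WNT10B, a canonical ligand, measured 10.3, 9.97 and 9.63 CPM with vehicle, 6.24, 8.14 and 6.71 CPM with DHT, and 3.87, 3.55 and 2.36 CPM in PC3. PC3 was lower than vehicle by -1.63 ± 0.18 (adjusted p = 5.9e-05) and lower than DHT by -1.12 ± 0.21 (adjusted p = 0.00119). The call against DHT was lost without PC3 replicate 3, where the difference was -0.95. WNT10A held 5, 6 and 5 counts in PC3, 42, 31 and 28 with DHT, and 28, 46 and 35 with vehicle. Under the 10-count filter PC3 was lower by -2.87 ± 0.28 (adjusted p = 2.03e-05) and by -3.09 ± 0.32 (adjusted p = 3.32e-05), and DHT and vehicle overlapped.

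WNT2B was the ligand most reduced by DHT in the 10-count comparison. It held 18, 35 and 49 counts with vehicle, 2, 2 and 4 with DHT, and 15, 8 and 23 in PC3. The difference was -3.72 ± 0.48 between DHT and vehicle (adjusted p = 1.02e-05) and -1.49 ± 0.43 between PC3 and vehicle (adjusted p = 0.0108). ST7L lies on the opposite strand of the same locus, and reads on that strand numbered 103 to 117 with DHT, 104 to 132 with vehicle and 139 to 173 in PC3. Across all genes, 2.33% to 3.06% of stranded gene counts lay on the other strand, and its part in the WNT2B counts was not tested. WNT4 held 14 to 49 counts, was called in no comparison, and lay under the 2-fold line with DHT against vehicle (0.98 ± 0.27, adjusted p = 0.00461). WNT8B and WNT9B reached at most 12 and 13 counts, with 1 count of WNT8B in each PC3 library and 0 of WNT9B in all 3. PORCN, whose product every WNT needs, measured 12.1 to 17.4 CPM in PC3, 8.79 to 10.2 CPM with DHT and 8.83 to 11.1 CPM with vehicle. Its differences were 0.61 ± 0.16 (PC3 against DHT, adjusted p = 0.00686), 0.59 ± 0.16 (PC3 against vehicle, adjusted p = 0.0100) and -0.03 ± 0.11 (DHT against vehicle, adjusted p = 0.81).

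Among the receptors, each group had its own leading Frizzled. FZD8 measured 750.5, 640.5 and 872 CPM in PC3, 7.81, 3.92 and 3.38 CPM with DHT, and 3.51, 2.08 and 1.84 CPM with vehicle. PC3 exceeded DHT by 7.21 ± 0.31 (adjusted p = 2.8e-07) and vehicle by 8.23 ± 0.25 (adjusted p = 5.48e-08). FZD4, known as the receptor for norrin in retinal vessels, measured 389, 339.8 and 552 CPM in PC3, 10.9, 13.4 and 11.9 CPM with DHT, and 8.69, 7.15 and 6.60 CPM with vehicle. PC3 exceeded DHT by 5.13 ± 0.22 (adjusted p = 2.44e-07) and vehicle by 5.82 ± 0.23 (adjusted p = 1.98e-07), and DHT exceeded vehicle by less than 2-fold (0.66 ± 0.12, adjusted p = 0.000249). FZD2, a receptor for WNT5A, measured 28.1, 27.1 and 32.9 CPM in PC3, 2.03, 1.37 and 1.54 CPM with DHT, and 2.88, 4.75 and 2.93 CPM with vehicle. PC3 exceeded DHT by 4.14 ± 0.17 (adjusted p = 2.06e-07) and vehicle by 3.04 ± 0.20 (adjusted p = 2.7e-06). For all 3 genes every PC3 library lay above every LNCaP library.

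FZD5, a canonical receptor needed for Paneth cell maturation in the gut, was the pathway gene most raised by DHT. The gene lies on the minus strand at chr2:207762598-207769906 of GRCh38. It measured 179, 154 and 184 CPM with DHT, 25.6, 20.9 and 24.3 CPM with vehicle, and 9.45, 11.2 and 10.7 CPM in PC3. DHT exceeded vehicle by 2.84 ± 0.076 (adjusted p = 3.31e-12). PC3 was lower than DHT by -4.06 ± 0.10 (adjusted p = 2.88e-08) and lower than vehicle by -1.20 ± 0.11 (adjusted p = 2.21e-05). No library of one group reached the range of another.

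FZD3 and FZD2 were lower with DHT. FZD3, a receptor of the planar polarity branch, measured 36.5, 33.3 and 32.3 CPM with vehicle, 15.5, 16.3 and 15.7 CPM with DHT, and 7.54, 8.23 and 9.33 CPM in PC3. It fell with DHT (-1.13 ± 0.068, adjusted p = 6.51e-09) and was lower in PC3 than in vehicle (-2.04 ± 0.11, adjusted p = 8.36e-07). PC3 and DHT differed by just under 2-fold (-0.93 ± 0.11, adjusted p = 0.000105). FZD2 fell with DHT by -1.11 ± 0.24 (adjusted p = 0.000871). Without vehicle replicate 2, the library with the highest FZD2 level in LNCaP cells, the difference was -0.83 and the gene was not called. FZD8 was higher with DHT by 1.01 ± 0.31 (adjusted p = 0.00977), although the ranges of the groups overlapped. It was higher in 3 of 3 same-numbered pairs, but libraries of the same number are not established as paired. With the replicate number as a block the difference was 0.99 (adjusted p = 2.2e-05), and without DHT replicate 1 it was 0.55, both under 2-fold. Leaving out vehicle replicate 2 gave 0.91 and leaving out vehicle replicate 3 gave 0.83.

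FZD1, FZD7 and FZD9 were lower in PC3 than in either LNCaP group. FZD1 measured 6.82, 6.70 and 7.64 CPM in PC3 against 18.8 to 22.7 CPM with DHT and 18.8 to 21.6 CPM with vehicle. The differences were -1.59 ± 0.12 (adjusted p = 4.61e-06) and -1.52 ± 0.10 (adjusted p = 3.66e-06). FZD7, known from embryonic and stem cells, measured 0.718, 0.450 and 0.827 CPM in PC3 against 3.47 to 3.78 CPM with DHT and 3.77 to 4.61 CPM with vehicle (-2.43 ± 0.22, adjusted p = 1.52e-05, and -2.64 ± 0.22, adjusted p = 1.05e-05). FZD9 measured 0.479, 0.225 and 0.354 CPM in PC3 against 4.17 to 6.79 CPM with DHT and 3.13 to 3.84 CPM with vehicle (-3.99 ± 0.30, adjusted p = 5.86e-06, and -3.29 ± 0.24, adjusted p = 5.12e-06). DHT and vehicle overlapped for FZD1 and FZD7, whereas FZD9 was higher with DHT by less than 2-fold (0.68 ± 0.18, adjusted p = 0.00361). FZD6, which restrains canonical signalling in some settings, was the one Frizzled at a high level in all groups. It measured 101, 103 and 89.9 CPM in PC3, 53.9, 55.1 and 48.3 CPM with DHT, and 86.1, 101 and 86.7 CPM with vehicle. PC3 and vehicle overlapped (0.08 ± 0.088, adjusted p = 0.429), and DHT lay below both by less than 2-fold, by -0.83 ± 0.071 from vehicle (adjusted p = 2.07e-07).

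Levels of different genes can be set beside each other only per length, as CPM per kb of exon sequence. On that scale PC3 cells were led by FZD8 (186 ± 28.6, SD, n = 3) and FZD4 (57.8 ± 15.1), followed by FZD6 (24.1 ± 1.72) and FZD2 (7.78 ± 0.825). DHT-treated LNCaP cells were led by FZD5 (24.5 ± 2.26) and FZD6 (12.9 ± 0.889), and FZD1 (3.06 ± 0.293) and FZD9 (2.43 ± 0.578) came next with overlapping spreads. Vehicle-treated cells were led by FZD6 (22.5 ± 2.14), with FZD5 (3.35 ± 0.346), FZD1 (2.90 ± 0.211) and FZD3 (2.47 ± 0.159) far below. Of the ligands, WNT7A (10.1 ± 1.54), WNT5A (7.87 ± 1.21), WNT9A (6.89 ± 0.919) and WNT7B (5.72 ± 0.520) lay near each other in PC3, and the SDs of neighbours overlapped. In LNCaP cells WNT7B led clearly, at 15.2 ± 0.510 with DHT and 6.67 ± 0.0894 with vehicle, followed by WNT10B at 2.702 ± 0.381 and 3.83 ± 0.121. The level of DKK1 in PC3, 538 ± 145, exceeded that of every ligand and Frizzled.

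**Figure D3:**
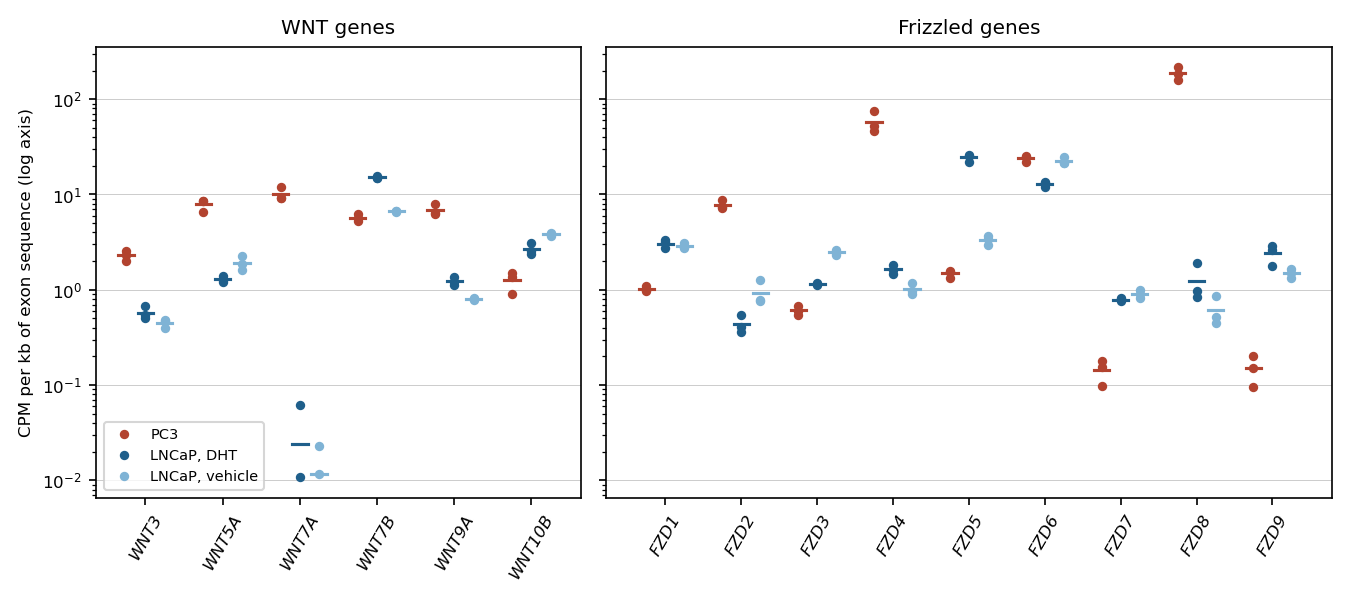
Levels per length (CPM per kb of exon sequence, log axis) of the WNT and Frizzled genes that exceeded 3 CPM in every library of a group. Points are libraries, bars are group means, and libraries with 0 counts of WNT7A cannot be drawn on the log axis. FZD8 and FZD4 led in PC3 cells, FZD5 in DHT-treated and FZD6 in vehicle-treated LNCaP cells.

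Of the co-receptors, LRP5 was called in 1 comparison and LRP6 in none. LRP5 measured 114, 107 and 120.1 CPM in PC3, 52.5, 55.8 and 53.3 CPM with DHT, and 77.2, 78.1 and 80.1 CPM with vehicle. It was called only in PC3 against DHT (1.07 ± 0.068, adjusted p = 2.12e-06). The differences were 0.51 ± 0.064 from vehicle (adjusted p = 0.000122) and -0.57 ± 0.048 between DHT and vehicle (adjusted p = 1.64e-07). LRP6 measured 30.6 to 34.0 CPM in PC3, 35.6 to 38.99 CPM with DHT and 47.7 to 50.1 CPM with vehicle. Its differences were -0.25 ± 0.080 (PC3 against DHT, adjusted p = 0.0190), -0.64 ± 0.069 (PC3 against vehicle, adjusted p = 5.3e-05) and -0.41 ± 0.055 (DHT against vehicle, adjusted p = 1.62e-05).

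The receptor kinases ROR1 and ROR2 went opposite ways with androgen. ROR1 measured 21.5, 17.5 and 19.5 CPM with DHT, 6.85, 7.04 and 7.84 CPM with vehicle, and 39.2, 32.8 and 30.6 CPM in PC3. It rose with DHT by 1.40 ± 0.099 (adjusted p = 3.2e-08) and was higher in PC3 than in vehicle by 2.21 ± 0.12 (adjusted p = 1.21e-06). The difference of PC3 from DHT was 0.80 ± 0.12 (adjusted p = 0.000395), under 2-fold, and no groups overlapped. ROR2 held 28, 31 and 25 counts with vehicle, 2, 0 and 2 with DHT, and 0 in every PC3 library. It fell with DHT by -4.38 ± 0.47 in the 10-count comparison (adjusted p = 1.35e-06) and was at least 35.1-fold lower in PC3 than in vehicle, taking 3 counts over the group as the limit for PC3.

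**Figure D4:**
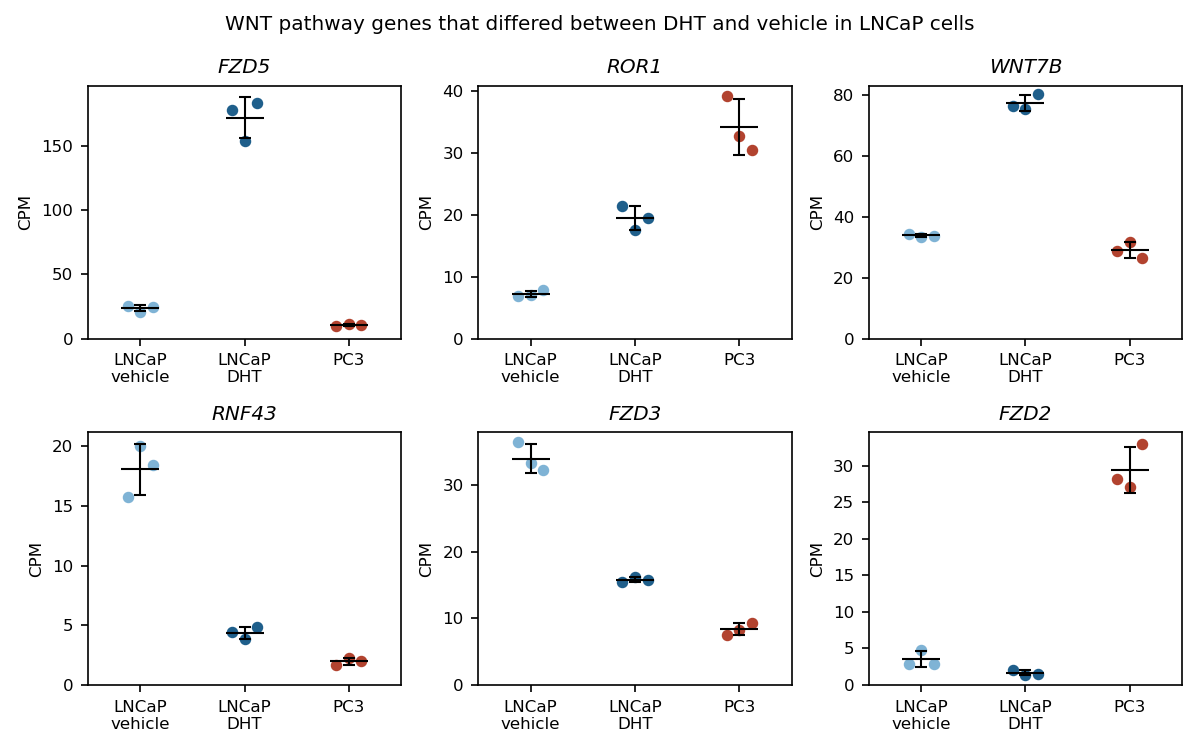
CPM per library for 6 pathway genes that were called between DHT and vehicle, with the group mean and SD (n = 3) in black on axes from 0. FZD5, ROR1 and WNT7B were higher with DHT than with vehicle, RNF43, FZD3 and FZD2 were lower, and the PC3 libraries are drawn beside them.

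Promoters of the pathway genes were read from RefSeq on GRCh38.p14, as windows of 250 bases before to 50 after the annotated start. Such windows were found for 34 of the 53 genes, among them 4 of the 7 called between DHT and vehicle, and WNT7B, FZD2 and FZD3 were not searched. They were searched on both strands for CTTTG, letters bound by TCF/LEF factors. Of the 4, the windows of FZD5, ROR1 and FZD8 held no match. The window of RNF43 held CTTTG at -90 from the start, where the number gives the leftmost base of the match. Windows of FZD5 (chr2:207769857-207770156, minus strand), ROR1 (chr1:63773767-63774066, plus strand) and RNF43 (chr17:58417485-58417784, minus strand) are printed 5′ to 3′ because these genes were called between DHT and vehicle. DKK1 (chr10:52314031-52314330, plus strand) was added after its values were seen, as the window with the most TCF letters. The window of FZD8, which was also called between DHT and vehicle, is not printed. Capitals mark matches on either strand.
FZD5: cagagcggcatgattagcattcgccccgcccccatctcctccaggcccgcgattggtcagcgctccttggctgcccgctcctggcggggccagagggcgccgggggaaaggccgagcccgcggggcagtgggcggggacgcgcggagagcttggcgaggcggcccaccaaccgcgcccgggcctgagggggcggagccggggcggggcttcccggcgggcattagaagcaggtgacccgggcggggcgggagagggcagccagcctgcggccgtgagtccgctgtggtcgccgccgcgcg
ROR1: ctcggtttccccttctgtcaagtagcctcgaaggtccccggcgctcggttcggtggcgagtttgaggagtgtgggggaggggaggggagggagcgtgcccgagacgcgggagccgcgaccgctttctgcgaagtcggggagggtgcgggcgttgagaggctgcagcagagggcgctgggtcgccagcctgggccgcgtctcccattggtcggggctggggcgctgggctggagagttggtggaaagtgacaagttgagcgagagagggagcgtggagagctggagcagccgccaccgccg
RNF43: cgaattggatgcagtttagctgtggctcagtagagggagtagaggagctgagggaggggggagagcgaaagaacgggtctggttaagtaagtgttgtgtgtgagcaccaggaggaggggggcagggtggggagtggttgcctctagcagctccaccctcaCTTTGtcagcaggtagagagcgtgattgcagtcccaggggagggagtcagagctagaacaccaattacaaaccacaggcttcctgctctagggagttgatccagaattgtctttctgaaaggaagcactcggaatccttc
DKK1: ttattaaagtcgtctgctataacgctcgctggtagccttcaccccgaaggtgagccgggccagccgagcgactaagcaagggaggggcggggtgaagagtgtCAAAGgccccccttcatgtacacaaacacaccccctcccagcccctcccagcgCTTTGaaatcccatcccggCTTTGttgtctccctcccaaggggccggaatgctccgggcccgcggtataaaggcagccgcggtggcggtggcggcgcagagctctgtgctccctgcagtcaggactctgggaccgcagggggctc
DKK1 held CTTTG at -95 and -76 and its reverse complement at -148. Among the pathway windows 7 of 34 (20.6%) held these letters, compared with 47.6% of 27305 promoter windows. The median GC content was 72.3% in the pathway windows and 58.3% in all. A match in these letters describes the window only, as does its absence.

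Of the secreted antagonists, DKK1 alone was abundant, and only in PC3 cells. DKK1, which blocks LRP6, measured 1351, 1408 and 823 CPM in PC3, from 33884, 31309 and 20921 counts. LNCaP libraries held 111, 4 and 3 counts with DHT and 53, 0 and 8 with vehicle, and replicate 1 was the highest of each group. PC3 exceeded DHT by 9.30 ± 0.84 (adjusted p = 1.63e-05) and vehicle by 10.12 ± 0.69 (adjusted p = 3.56e-06). Without DHT replicate 1 the difference from DHT was 12.69, and without vehicle replicate 1 that from vehicle was 12.44.

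The same libraries were high in other genes of PC3 type. As a share of the PC3 mean, DKK1 reached 0.430% in DHT replicate 1 against 0.0164% and 0.0125% in replicates 2 and 3, and 0.232% in vehicle replicate 1 against 0 and 0.0332%. FZD8 reached 1.04%, 0.520% and 0.448% with DHT and 0.465%, 0.276% and 0.243% with vehicle. WNT7A reached 0.604%, 0.107% and 0 with DHT and 0.228%, 0.116% and 0 with vehicle. The 8 markers of PC3 type, summed, stood at 0.856%, 0.429% and 0.343% with DHT and at 0.509%, 0.273% and 0.335% with vehicle. Taken singly, 7 of the 8 were highest in replicate 1 of both LNCaP groups, CAV2 being the exception. Their part in the LNCaP levels of DKK1, FZD8 and WNT7A was not tested. FZD4 was at 2.55% to 3.15% with DHT and 1.55% to 2.03% with vehicle, and WNT5A at 15.3% to 17.7% and 20.5% to 28.6%.

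**Figure D5:**
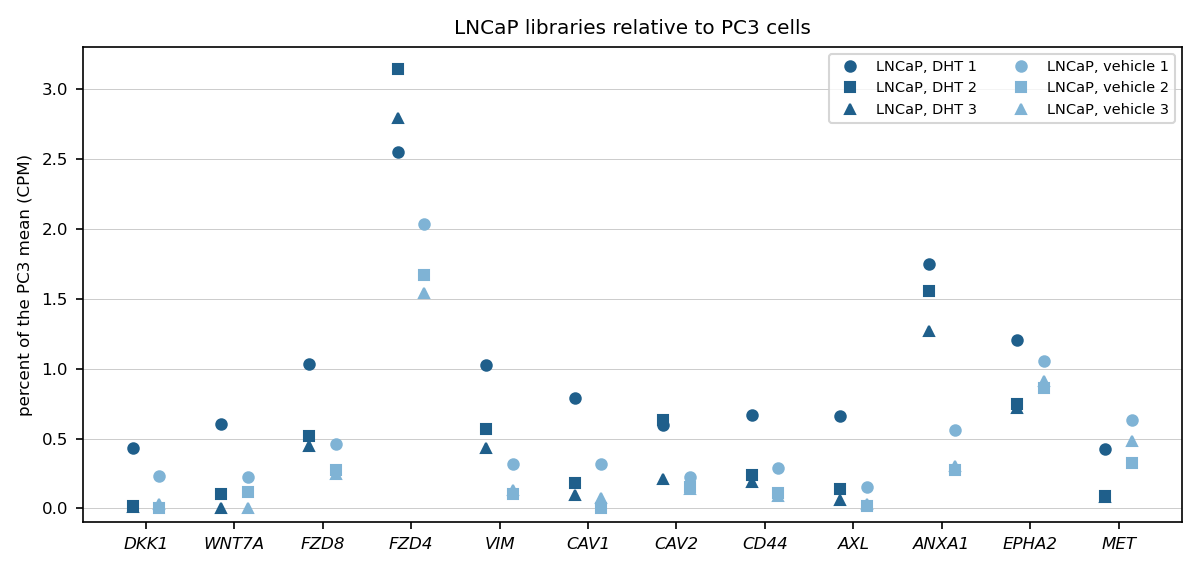
Level of 4 pathway genes and the 8 markers of PC3 type in each LNCaP library, as percent of the mean CPM of the PC3 libraries. DKK1, WNT7A, FZD8, VIM, CAV1, CD44, AXL, ANXA1 and EPHA2 were highest in DHT replicate 1. FZD4 and CAV2 were highest in DHT replicate 2, and MET in vehicle replicate 1.

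NOTUM, the enzyme that strips the lipid from WNT proteins, held 41, 40 and 37 counts in PC3, 5, 7 and 5 with DHT, and 10, 8 and 15 with vehicle. PC3 exceeded DHT by 2.53 ± 0.26 (adjusted p = 2.8e-05) and vehicle by 1.48 ± 0.26 (adjusted p = 0.000699) in the 10-count comparison. SFRP1, a secreted decoy for WNT, held 15, 16 and 14 counts in PC3 and at most 3 in any LNCaP library. Its differences were 2.39 ± 0.42 from DHT (adjusted p = 0.000693) and 3.04 ± 0.59 from vehicle (adjusted p = 0.00139), the latter 4.31 without vehicle replicate 2. Both genes stayed under 2 CPM in every library. The other 3 SFRP genes and DKK2 and DKK4 had at most 1 count in a library.

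R-spondin ligands were all but absent, whereas the receptor LGR4 and the ligase ZNRF3 exceeded 3 CPM in every library. LGR4, the more widely expressed receptor, measured 73.4, 61.2 and 71.1 CPM in PC3, 37.1, 35.9 and 37.0 CPM with DHT, and 31.8, 27.0 and 28.1 CPM with vehicle. It was called in PC3 against vehicle (1.22 ± 0.098, adjusted p = 8.75e-06). Against DHT the difference was 0.89 ± 0.086 (adjusted p = 2.36e-05), and between DHT and vehicle it was 0.31 ± 0.063 (adjusted p = 0.000564). LGR5, a stem cell marker in the gut, held 38, 66 and 35 counts in PC3, 2, 0 and 0 with DHT and 0 in every vehicle library. PC3 was at least 37.0-fold higher than vehicle, and its ratio to DHT was 59.4 (interval 16.1 to 495).

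RNF43 was the pathway gene most reduced by DHT among those over 3 CPM. It measured 15.7, 20.002 and 18.5 CPM with vehicle, 4.44, 3.82 and 4.82 CPM with DHT, and 1.71, 2.29 and 2.01 CPM in PC3, and no groups overlapped. It fell with DHT by -2.08 ± 0.13 (adjusted p = 6.83e-09). PC3 was lower than vehicle by -3.20 ± 0.16 (adjusted p = 5.91e-07) and lower than DHT by -1.13 ± 0.17 (adjusted p = 0.000341). Of the 74-nt stretches of its transcripts, 64.4% also occur in transcripts of an overlapping gene annotated on the same strand, and 0% at another place in the genome. ZNRF3, its paralogue with the same function, was called in no comparison. It measured 12.5 to 13.8 CPM in PC3, 14.9 to 16.2 CPM with DHT and 21.8 to 22.8 CPM with vehicle. Its difference between DHT and vehicle was -0.55 ± 0.067 (adjusted p = 6.72e-06), between PC3 and DHT -0.26 ± 0.093 (adjusted p = 0.0322), and between PC3 and vehicle -0.79 ± 0.082 (adjusted p = 4.06e-05).

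Both feedback genes were lower in PC3 than in LNCaP cells. AXIN2, a scaffold of the complex that degrades beta-catenin and a common readout of canonical signalling, measured 4.51, 5.08 and 3.54 CPM in PC3, 9.94, 10.2 and 11.4 CPM with DHT, and 9.47, 9.23 and 11.5 CPM with vehicle. PC3 was lower than DHT by -1.28 ± 0.16 (adjusted p = 9.89e-05) and lower than vehicle by -1.23 ± 0.16 (adjusted p = 0.000196). DHT and vehicle overlapped (0.03 ± 0.11, adjusted p = 0.8). An overlapping gene annotated on the same strand shares 24.0% of the 74-nt stretches of AXIN2. NKD1, an inhibitor that binds Dishevelled, held 4, 2 and 2 counts in PC3, 101, 135 and 89 with DHT, and 183, 170 and 191 with vehicle. PC3 was lower by -5.52 ± 0.33 (adjusted p = 1.58e-06) and by -6.36 ± 0.21 (adjusted p = 8.24e-08). DHT lay below vehicle by less than 2-fold (-0.87 ± 0.14, adjusted p = 0.000102), without overlap.

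Other genes were taken from a list of 76 drawn up for the pathway. Of these, 56 were tested in PC3 against DHT, 59 in PC3 against vehicle and 52 in DHT against vehicle. TFPI2 is counted as listed, under secretion and extracellular control, though it is not an established component of the pathway. In PC3 against DHT 18 were higher and 12 lower, which was 53.6% of those tested, compared with 46% of all genes. In PC3 against vehicle 14 were higher and 14 lower (47.5%, compared with 43.2%), and in DHT against vehicle 2 and 6 (15.4%, compared with 14%). Taken whole, the list had shares near those of all genes. The shares of its parts varied, but outside the intracellular components each rested on only 6 to 12 genes tested. Of the intracellular components, 6 were higher and 5 lower of 30 tested in PC3 against DHT, 5 and 5 of 31 against vehicle, and 1 and 2 of 28 with DHT against vehicle, or 36.7%, 32.3% and 10.7%. Of the 23 genes of secretion and extracellular control only 10, 12 and 9 were tested in the same order, and 7 and 2, 6 and 4, and 1 and 4 were called. These were 90%, 83.3% and 55.6% of those tested. The genes of planar polarity gave 4 and 2 of 11, 2 and 2 of 11, and 0 of 10, or 54.5%, 36.4% and 0%. The target genes gave 2 and 3 of 6, 2 and 4 of 7, and 0 and 1 of 6, or 83.3%, 85.7% and 16.7%. The shares of all genes beside these counts are again 46%, 43.2% and 14%. Some listed genes, such as TFPI2 against DHT and GPC3 against vehicle, passed the filter through only 1 group, which selects for a difference. Shares among listed genes that passed in both groups were not computed, so no difference between the parts is concluded. The median log2 change over the genes tested was 0.29, 0.26 and -0.16 in that order of comparisons, beside 0.036, 0.026 and -0.0068 for all genes.

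In PC3 cells the largest rises on that list were in PRICKLE1, a planar polarity protein at 99.4 ± 16.4 CPM (SD, n = 3), TFPI2, TCF7L1 and TRABD2B against DHT. Their differences were 9.52 ± 0.28, 8.16 ± 0.47, 7.26 ± 0.33 and 5.81 ± 0.24, with adjusted p of 5.06e-08, 1.14e-06, 3.47e-07 and 2.19e-07. With DHT these genes averaged 0.126, 0.266, 0.0945 and 0.338 CPM, where 3 counts correspond to 0.139 to 0.149 CPM. The size of these differences therefore rests on few LNCaP counts. Against vehicle TLE4, a corepressor of TCF factors, took the place of TRABD2B (7.61 ± 0.21, adjusted p = 4.22e-08), with 21.6 ± 1.43 CPM in PC3 and 0.103 ± 0.0519 CPM in vehicle. The largest falls in PC3 against DHT were in VANGL2 (-6.38 ± 0.45), TNFRSF19 (-4.14 ± 0.15), BAMBI (-3.64 ± 0.15) and KREMEN1 (-2.72 ± 0.094). VANGL2 is a core polarity gene, and KREMEN1 is a receptor for DKK proteins. VANGL2 averaged 0.0583 ± 0.0693 CPM in PC3, under the level of 3 counts, so the size of its fall is uncertain. Against vehicle VANGL2 (-6.92 ± 0.37) and BAMBI (-4.09 ± 0.14) were again among them, and APCDD1 and GPC3 were at 0 in every PC3 library against 3.90 ± 0.293 and 3.90 ± 0.636 CPM.

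With androgen, WLS, the carrier that takes WNT proteins to the surface, fell from 35.5 ± 1.56 CPM to 10.9 ± 2.28 CPM (-1.74 ± 0.11, adjusted p = 1.36e-08). GPC3 (-1.86 ± 0.23, adjusted p = 6.83e-06) and APCDD1 (-1.30 ± 0.17, adjusted p = 1.04e-05) fell too. The corepressors TLE1 and TLE3 went opposite ways: TLE1 rose from 24.3 ± 2.21 to 59.98 ± 3.04 CPM (1.27 ± 0.062, adjusted p = 8.21e-10), and TLE3 fell from 291 ± 24.9 to 122 ± 4.08 CPM (-1.29 ± 0.057, adjusted p = 3.53e-10). KREMEN2 rose by 1.23 ± 0.16 (adjusted p = 1.57e-05).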

How the data were processed

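RNA of PC3 cells, LNCaP cells treated with DHT and LNCaP cells treated with vehicle was sequenced as single-end poly(A) libraries, 3 per group. By the study's methods, adapters were trimmed, reads were aligned with STAR, duplicates were collapsed by UMI-tools and what remained was aligned once more. The submitters' processing notes list cutadapt 4.1, STAR 2.7.7a, UMI-tools 1.1.2 and GRCh38. The gene annotation used for counting is not given in the sources used here. The authors deposited counts, whole numbers of reads per gene symbol without normalization. All 253944 values of the table equalled STAR's forward-strand counts, and STAR's other columns served for the opposite strand and for unstranded counts. The number of columns left out was 0. Between 20.3% and 25.4% of reads were not counted on a gene.

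Every fit used the 6 libraries of its comparison, in edgeR 4.0.16 (R 4.3.3), with TMM factors, the quasi-likelihood test and Benjamini-Hochberg adjustment over all genes with more than 3 CPM in at least 3 libraries. Groups enter more than 1 comparison. The study used a likelihood ratio test with a batch term, whose batches are not named, so that test and a replicate block were alternatives. Standard errors were taken from the fold change and the F value. The CPM given use TMM factors over all 9 libraries, whereas the filter of the fits used CPM without them. A group at 0 was given the limit of 3 counts, and groups with 1 to 3 counts an exact 95% interval. Gene locations and lengths are from GENCODE 44 on GRCh38, and promoters from RefSeq. The test was checked on simulated data. A planned marker and a planned motif are not reported here.

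Same-numbered libraries were checked for pairing by correlating deviations from group means over 10015 genes. DHT and vehicle libraries of the same number gave 0.15, 0.23 and 0.21, and those of different numbers -0.27 to 0.10. PC3 and LNCaP libraries of the same number gave -0.20 to 0.08. With different numbers PC3 and DHT libraries reached 0.22, so correlations of this size do not establish that DHT and vehicle libraries are paired.

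Results were recomputed with edgeR's likelihood ratio test, with size factors or the Wald test from DESeq2 1.42.0, with the replicate block, with at least 10 counts in 3 libraries, no filter, the adjusted p alone, all 9 libraries in one fit, unstranded counts and each library left out in turn. Leaving out both LNCaP libraries of replicate 1 was chosen after seeing the data. The genes and lists were chosen with earlier results of these data known. Every pathway gene called in a comparison, or over 3 CPM in every library of a group, is given with its values. Of the 76 other genes listed, up to 4 called genes that rose most and 4 that fell most are named per comparison.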

Additional observations from a re-analysis of the deposited data

Results flagged for a closer look

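Reads on the opposite strand of a gene entered no main comparison, only the alternative with unstranded counts. They exceeded the limit that a count of 0 allows in at least 1 library for 19 of the 53 pathway genes. For WNT2B, FZD4 and RNF43 they also made up more than the library-wide share of stranded counts, with at least 10 such counts in every library of a group. DKK1 and FZD8 reached 101 and 118 in PC3, where they made up 0.204% to 0.297% and 0.433% to 0.576% of stranded counts. The highest library of WNT2B held 173 such counts in PC3, 117 with DHT and 132 with vehicle, which was 72.9% to 98.1% of all stranded counts at the gene over the 9 libraries. ST7L is annotated there. For FZD4 the highest PC3 library held 583, between 3.99% and 5.06% of its stranded counts in PC3, and PRSS23 is annotated on that strand. For RNF43 the highest library held 17 in PC3 and 15 with vehicle, and TSPOAP1-AS1 is annotated there.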

How the results depend on the processing

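Among the pathway genes called, no alternative reversed a direction. The calls lost were FZD8 between DHT and vehicle (0.996 on the log2 scale with the likelihood ratio test, 0.99 with the replicate block, 0.87 without both LNCaP libraries of replicate 1, and under 1 without DHT replicate 1 or vehicle replicates 2 or 3), FZD2 between DHT and vehicle without vehicle replicate 2 (-0.83), and WNT10B in PC3 against DHT without PC3 replicate 3 (-0.95). The replicate block changed no other call, and the cause was not tested. The WNT7A difference from vehicle was 9.62 in the fit and 10.49 without vehicle replicate 1. Called genes in DHT against vehicle numbered 6 with the block or the likelihood ratio test and 5 to 8 with a library left out; in the PC3 comparisons they numbered 18 and 19 with any library left out, the same genes except that without PC3 replicate 3 FZD3 was called against DHT in place of WNT10B. NKD1 was gained between DHT and vehicle without DHT replicate 2. On adjusted p alone, 18 genes passed between DHT and vehicle, 8 higher and 10 lower. With at least 10 counts 5 were lower with DHT, and without a filter 6. Without a filter 14 were higher in PC3 than with DHT, and 29 were called against vehicle, 15 of them lower in PC3. Unstranded counts, DESeq2's factors or test and all 9 libraries in one fit left the number of calls at 18, 7 and 19. Under 3 counts per group, depth limits a fold change to a bound or a wide interval.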
